A study of Mus musculus with 8 samples.

Results

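Zbtb16, Gata3, Bcl11b, Tox2 and Prdm1 are 5 transcription factor genes of innate lymphoid and T cells, and their RNA was followed in 2 mouse bone marrow progenitor populations with and without the bZIP factor Nfil3. Every probe set annotated to 1 of these symbols only was taken, which gave 9 of the 45141 probe sets on the arrays, for 5 of the 17097 genes with such a probe set. Bcl11b had 4 of them, Zbtb16 had 2, and Gata3, Tox2 and Prdm1 had 1 each. One population was the all-lymphoid progenitor (ALP), from which all lymphocytes can arise. The other was the prepro NK cell (preproNK), which lies further along towards natural killer (NK) cells. Both were taken from wild-type mice (WT) and from mice with Nfil3 knocked out (KO). All mice carried an Id2-GFP reporter, and the cells were sorted from marrow depleted of lineage-positive cells and lysed at once without culture. The 4 groups are thus the 2 genotypes in each population, with 2 arrays apiece, and replicate 1 and replicate 2 were processed on different dates. The sources used here do not give how many mice made up a sample, their age or the kind of knockout allele.

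Zbtb16 encodes PLZF, a BTB zinc finger repressor that marks precursors of innate lymphoid cells and sets the effector program of NKT cells. Gata3 encodes a zinc finger factor needed at several steps of T cell development and for type 2 innate lymphoid cells (ILC2). Bcl11b encodes a zinc finger factor of T lineage commitment that ILC2 also use. Prdm1 encodes Blimp-1, a repressor of terminally differentiating lymphocytes, and Tox2 encodes an HMG box factor described in maturing human NK cells. Nfil3 is needed early in the innate lymphoid lineages, NK cells included.

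Promoter windows of 3 of these genes are shown because the genes were compared between cells with and without Nfil3 and could carry its recognition sequence. RefSeq's GRCm38.p6 table had promoter windows, most of each before the transcription start, for Bcl11b, Gata3, Prdm1 and Tox2, and those of the first 3, each 300 bases long, follow. Both strands were searched for TTANGTAA, the palindrome bound by NFIL3 and the related PAR bZIP factors. AGATAA, which GATA factors bind, was searched in the same way. So was CANNTG, the E-box of the E proteins that Id2 inhibits. The last was CTTTGA, which TCF-1 and LEF-1 bind. Matches are in capitals, and no match overlapped another.
Bcl11b, chr12:108003365-108003664, minus strand: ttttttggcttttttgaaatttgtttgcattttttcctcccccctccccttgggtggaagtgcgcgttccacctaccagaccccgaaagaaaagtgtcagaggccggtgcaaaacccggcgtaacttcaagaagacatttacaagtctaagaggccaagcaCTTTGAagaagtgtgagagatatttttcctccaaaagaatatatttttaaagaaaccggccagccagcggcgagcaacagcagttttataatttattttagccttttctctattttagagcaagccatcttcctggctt
Gata3, chr2:9878551-9878850, minus strand: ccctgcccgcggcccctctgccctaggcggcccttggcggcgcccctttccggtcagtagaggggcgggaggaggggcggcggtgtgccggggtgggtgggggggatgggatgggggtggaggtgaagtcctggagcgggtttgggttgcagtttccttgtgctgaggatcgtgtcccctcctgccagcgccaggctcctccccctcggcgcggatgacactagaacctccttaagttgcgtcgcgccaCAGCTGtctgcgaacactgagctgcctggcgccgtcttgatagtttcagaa
Prdm1, chr10:44458699-44458998, minus strand: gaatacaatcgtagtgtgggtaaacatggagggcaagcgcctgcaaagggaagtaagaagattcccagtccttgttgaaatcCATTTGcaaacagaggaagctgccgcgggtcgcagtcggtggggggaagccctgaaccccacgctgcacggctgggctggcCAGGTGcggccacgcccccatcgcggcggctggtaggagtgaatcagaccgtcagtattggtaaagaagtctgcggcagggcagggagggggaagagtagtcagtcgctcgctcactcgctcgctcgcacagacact
The Bcl11b window held 1 CTTTGA and no E-box. The Gata3 window held 1 E-box and the Prdm1 window 2. No TTANGTAA or AGATAA was in any of the 3. Of all 32851 windows of that length, 2.32% held TTANGTAA and 11.2% AGATAA. An E-box was in 72.3% and CTTTGA in 16%. These matches describe letters in a short window only.

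The values are log2 expression per probe set. They carry no detection calls, so a value below its array's median over all probe sets (3.93 to 4.27) is taken here as near background. Nfil3 was at 6.89 and 5.50 on the WT ALP arrays, at 3.41 and 4.15 on KO ALP, at 4.75 and 4.74 on WT preproNK and at 3.84 and 3.57 on KO preproNK, so all KO arrays were below all WT arrays. The differences of -2.41 (SE 0.51) in ALP and -1.04 (SE 0.51) in preproNK did not pass in limma (adjusted p = 1 and 0.629), and it is not known here if its probes match the removed sequence. Markers of cell types were compared between the stages on average over genotypes. Of the 9 listed early lymphoid markers 8 were tested and 5 were called lower in preproNK. Among them was Flt3, at 8.10 to 9.14 on ALP arrays and 3.79 to 4.47 on preproNK arrays. Of the 8 listed NK markers 6 were tested and 3 were called higher, while Klrb1c, Gzma and Prf1 were not. Higher calls were not limited to NK markers. They were also made for 7 of 8 T cell markers and for 3 of 4 tested ILC2 markers. No tested marker of B cells (4), neutrophils and monocytes (5), erythroid cells (4) or mast cells and megakaryocytes (3) was called in either direction. Of the 4 tested dendritic cell markers 2 were called lower, among them Flt3, which is also in the early lymphoid list. A lack of calls between the stages does not mean that such RNA was absent. The summed linear signal of the neutrophil and monocyte markers was 789 to 1773 on the ALP arrays. It was 987 and 224 on WT preproNK and 1152 and 975 on KO preproNK. Il7r, which also marks these progenitors, was not analysed here. The WT preproNK replicate 2 array stood apart before any comparison. The SD of its values was 1.39, against 1.55 to 1.88 on the others. It correlated with WT preproNK replicate 1 at 0.61, against 0.96 between the KO preproNK arrays. The next lowest SD, 1.55, was that of the other WT array of the same date, WT ALP replicate 2. That array correlated with WT ALP replicate 1 at 0.86, against 0.93 between the KO ALP arrays. Among the 5210 tested probe sets with a mean of at least 7 on the KO preproNK arrays, the WT preproNK replicate 2 value was below the replicate 1 value by a median of -1.59 (quartiles -2.37 and -0.90). The same median between the KO preproNK arrays was -0.03. Differences between KO and WT preproNK are therefore also given by replicate.

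Zbtb16 was low in ALP and higher in preproNK by both of its probe sets. Probe set 1427638_PM_at was at 3.78 and 4.22 in WT ALP, 3.85 and 4.25 in KO ALP, 6.35 and 5.95 in WT preproNK, and 7.29 and 6.75 in KO preproNK (replicates 1 and 2). The ALP arrays sat close to their array medians, and all 4 preproNK arrays were clear of them, with KO above WT preproNK. Probe set 1439163_PM_at was at 3.42 and 3.69 in WT ALP, 3.08 and 3.54 in KO ALP, 6.76 and 4.38 in WT preproNK, and 7.66 and 8.11 in KO preproNK. In WT preproNK this second probe set was high on replicate 1 and close to background on replicate 2, a gap of -2.38 that 1427638_PM_at did not have (-0.40). The pair correlated at r = 0.93 over the 8 arrays, which form 2 populations.

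Bcl11b was near or slightly above background in ALP and bright in preproNK, with probe sets that differed in level. Probe set 1450339_PM_a_at, the brightest, was at 4.56 and 5.40 in WT ALP, 4.11 and 4.45 in KO ALP, 8.69 and 6.94 in WT preproNK, and 8.82 and 8.21 in KO preproNK. It was the only member probe set above the array median on all 8 arrays. Probe set 1435227_PM_at was at 2.97 and 3.49, 2.99 and 3.13, 7.92 and 5.17, and 8.25 and 8.27 in the same order of groups. Probe set 1438784_PM_at was at 3.26 and 4.28, 3.25 and 3.82, 7.70 and 4.88, and 7.89 and 7.83. On these 3 probe sets WT preproNK replicate 1 lay at most 0.33 below the KO preproNK array of its date, and WT preproNK replicate 2 lay between the ALP and the other preproNK arrays. Probe set 1452966_PM_at was dimmer, at 3.24 and 3.57, 2.98 and 3.73, 5.08 and 4.42, and 5.84 and 5.05. Its gap between the WT preproNK arrays was -0.66, against -1.74 to -2.82 for the other 3. In all, 5 of the 8 tested member probe sets were lower on WT preproNK replicate 2 than on replicate 1 by 1 or more, as 29.8% of all tested probe sets were.

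Gata3 was near background on every ALP array, at 3.20 and 3.36 in WT and 3.04 and 3.58 in KO. It was at 7.79 and 4.46 in WT preproNK and at 6.27 and 5.67 in KO preproNK. The brightest and the dimmest preproNK array were thus both WT, and the KO arrays lay between them. Prdm1 was at 3.44 and 4.07 in WT ALP, 3.12 and 3.91 in KO ALP, 4.76 and 5.12 in WT preproNK, and 4.37 and 4.60 in KO preproNK. Its range was narrow, and it was the only one of the 4 tested genes to have a higher value on WT preproNK replicate 2 than on replicate 1. Tox2 was at 3.66 and 3.69 in WT ALP, 3.25 and 3.44 in KO ALP, 3.54 and 3.42 in WT preproNK, and 3.46 and 3.38 in KO preproNK. All 8 Tox2 values were below the array medians, so they have no order, and Tox2 was not tested.

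**Figure D1:**
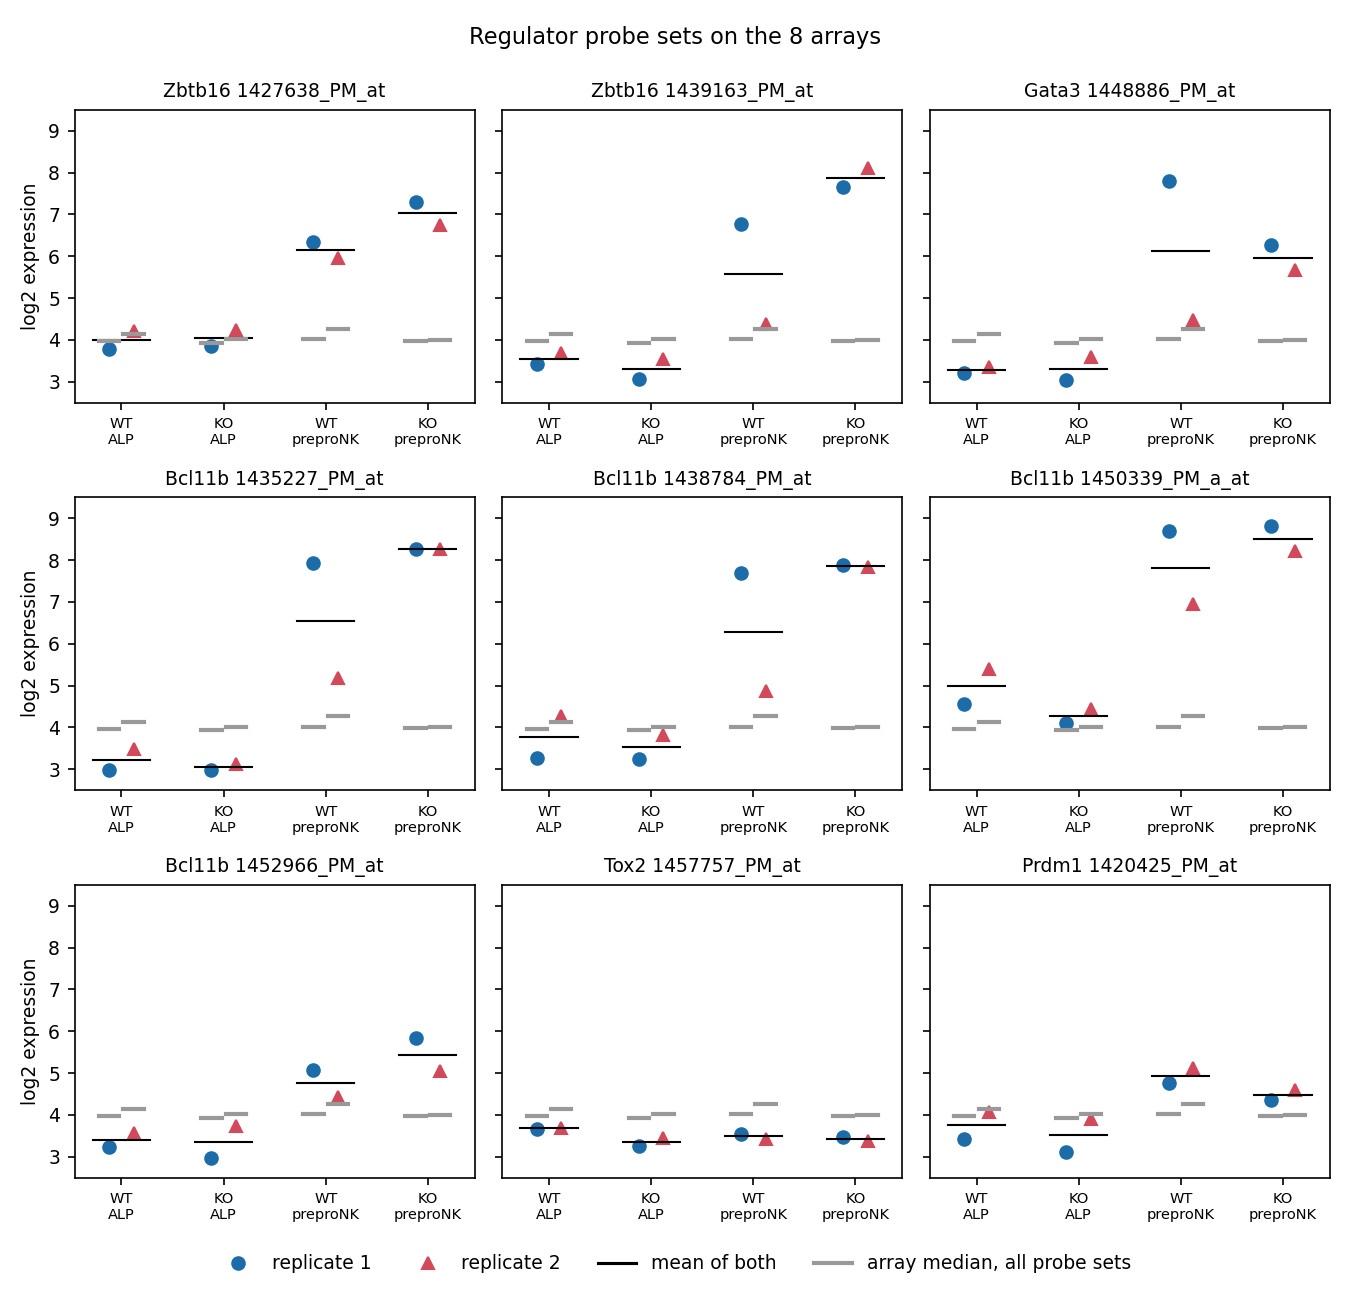
Log2 expression of the 9 probe sets (y axis) in the 4 groups (x axis). Circles are replicate 1, triangles replicate 2, black bars the mean of both and grey bars each array's median over all probe sets. All probe sets but that of Tox2 have every preproNK point above every ALP point, and the WT preproNK points lie furthest apart for Gata3 (7.79 and 4.46).

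The comparison of preproNK with ALP asked how the regulators differed between the stages, in each genotype and averaged over both. Averaged over genotypes, both Zbtb16 and all 4 Bcl11b probe sets rose. By limma with Benjamini-Hochberg adjustment over the 26240 tested probe sets, Zbtb16 1427638_PM_at had a log2 difference of 2.56 (SE 0.27, adjusted p = 0.00683) and 1439163_PM_at one of 3.30 (SE 0.51, adjusted p = 0.0219). For Bcl11b the differences were 3.53 for 1450339_PM_a_at (SE 0.43, adjusted p = 0.0101), 4.26 for 1435227_PM_at (SE 0.56, adjusted p = 0.0121), 3.42 for 1438784_PM_at (SE 0.60, adjusted p = 0.0326) and 1.72 for 1452966_PM_at (SE 0.32, adjusted p = 0.0411). Bcl11b 1450339_PM_a_at was 11.6-fold higher in preproNK. With ALP values below an array's median set to that median, the bounds were at least 5.63-fold and 6.57-fold for the Zbtb16 probe sets and at least 10.5-fold, 8.15-fold and 2.12-fold for the other Bcl11b probe sets. Gata3 had a difference of 2.75 (SE 0.67, adjusted p = 0.0870) and Prdm1 one of 1.08 (SE 0.29, adjusted p = 0.121), and neither passed. When processing date entered as a replicate block both passed in limma, at adjusted p = 0.0412 for Gata3 and 0.0308 for Prdm1. With the block 3.25% of all tested probe sets were called higher, against 1.47% without it.

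The 6 calls compare with 1.47% of all tested probe sets called higher. Each of the 8 tested member probe sets had all 4 preproNK arrays above all 4 ALP arrays, as 5.21% of all tested probe sets did. Of the 8 probe sets 5 entered the test through their preproNK values alone (Zbtb16 1439163_PM_at, Gata3, Bcl11b 1435227_PM_at and 1452966_PM_at, and Prdm1). Bcl11b 1438784_PM_at was above the median on only 1 ALP array and so needed its preproNK values too. Those counts are therefore no support by themselves. The differences held in sign at both dates and were smaller in replicate 2, for example 3.01 and 2.12 for Zbtb16 1427638_PM_at, 4.41 and 2.65 for Bcl11b 1450339_PM_a_at, 3.91 and 1.60 for Gata3 and 1.29 and 0.87 for Prdm1. The calls depended on arrays of both KO groups and of WT ALP, while the difference of Zbtb16 1427638_PM_at ran from 2.43 to 2.70 and that of Bcl11b 1450339_PM_a_at from 3.10 to 3.97. Without KO preproNK replicate 1 or 2 none of the 8 was called, with Zbtb16 1427638_PM_at at adjusted p = 0.0717 and 0.0519 without replicate 1 and replicate 2. None was called without KO ALP replicate 1 either, without WT ALP replicate 1 or KO ALP replicate 2 only Zbtb16 1427638_PM_at was, and without WT ALP replicate 2 the count was 3. The shares of all tested probe sets called higher at these settings were 0.0534% to 0.678%. Without WT preproNK replicate 1 or 2, 7 members were called, Gata3 among them both times (1.92 and 3.58), with 2.92% and 4.69% of all tested probe sets called higher. Without the filter on dim probe sets 4 were called and Bcl11b 1438784_PM_at (adjusted p = 0.0712) and 1452966_PM_at (adjusted p = 0.0612) were not. At that setting 0.658% of all 45141 probe sets were called higher.

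Within the genotypes, whose difference is tested further on as the interaction, the fitted differences were larger in KO for Zbtb16 and Bcl11b. In KO, Zbtb16 rose by 2.97 on 1427638_PM_at (SE 0.38, adjusted p = 0.0192) and by 4.58 on 1439163_PM_at (SE 0.71, adjusted p = 0.0332). Bcl11b rose by 5.20 on 1435227_PM_at (SE 0.79, adjusted p = 0.0307) and by 4.23 on 1450339_PM_a_at (SE 0.61, adjusted p = 0.0276). The ALP values of Zbtb16 1439163_PM_at and Bcl11b 1435227_PM_at were below the array medians. With such values set to the median, the bounds in KO were at least 7.64-fold and 15.0-fold for Zbtb16 and at least 19.6-fold for Bcl11b 1435227_PM_at, and Bcl11b 1450339_PM_a_at was 18.8-fold higher. Those 4 calls were made where 0.998% of all tested probe sets were called higher in KO. Zbtb16 1439163_PM_at and Bcl11b 1435227_PM_at entered the test through their preproNK values alone, so the count is no support by itself. Without any 1 of the 4 KO arrays no member was called in this comparison, with Zbtb16 1427638_PM_at at adjusted p = 0.149 to 0.267, and without WT ALP replicate 1 or 2 only 2 were. Bcl11b 1438784_PM_at differed by 4.33 (adjusted p = 0.0676, or 0.0429 with the replicate block), Gata3 by 2.66 (SE 0.94, adjusted p = 0.338) and Prdm1 by 0.97 (SE 0.42, adjusted p = 0.482). With the block 2% of all tested probe sets were called higher in KO. Fitted on the KO groups alone, 7 of the 8 were called, beside 5.31% of all tested probe sets called higher. Without the filter only Zbtb16 1427638_PM_at was, beside 0.401% of all 45141 probe sets called higher. The adjusted p was then 0.0733 for Zbtb16 1439163_PM_at and 0.0696 and 0.0590 for Bcl11b 1435227_PM_at and 1450339_PM_a_at.

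In WT no member was called by limma, where 0.0114% of all tested probe sets were called higher and 7.15% had an unadjusted p under 0.05. The fitted WT differences were 2.15 (SE 0.38, adjusted p = 0.177) and 2.01 for Zbtb16, 2.85 for Gata3, 1.19 for Prdm1 and 1.35 to 3.32 for Bcl11b. In the replicate 1 arrays alone they were 2.57 and 3.35 for Zbtb16, 4.59 for Gata3, 1.33 for Prdm1, and 4.95, 4.44, 4.12 and 1.84 for Bcl11b 1435227_PM_at, 1438784_PM_at, 1450339_PM_a_at and 1452966_PM_at. In replicate 2 they were 1.73 and 0.68, 1.10, 1.05, and 1.69, 0.60, 1.54 and 0.86. Without WT preproNK replicate 2, where 1.04% of all tested probe sets were called higher in WT, 5 member probe sets were called: Gata3 (4.51, adjusted p = 0.00843), Zbtb16 1439163_PM_at (3.21, adjusted p = 0.0181) and Bcl11b 1435227_PM_at (4.69, adjusted p = 0.00582), 1438784_PM_at (3.93, adjusted p = 0.0182) and 1450339_PM_a_at (3.70, adjusted p = 0.0191). The lone WT preproNK array is there assumed to vary like the other groups. Of the probe sets called, all but Bcl11b 1450339_PM_a_at needed their preproNK values to enter the test. Without WT preproNK replicate 1, where 1.08% of all were, Zbtb16 1427638_PM_at (1.95, adjusted p = 0.0492) and Bcl11b 1435227_PM_at (1.95, adjusted p = 0.0402) were called.

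**Figure D2:**
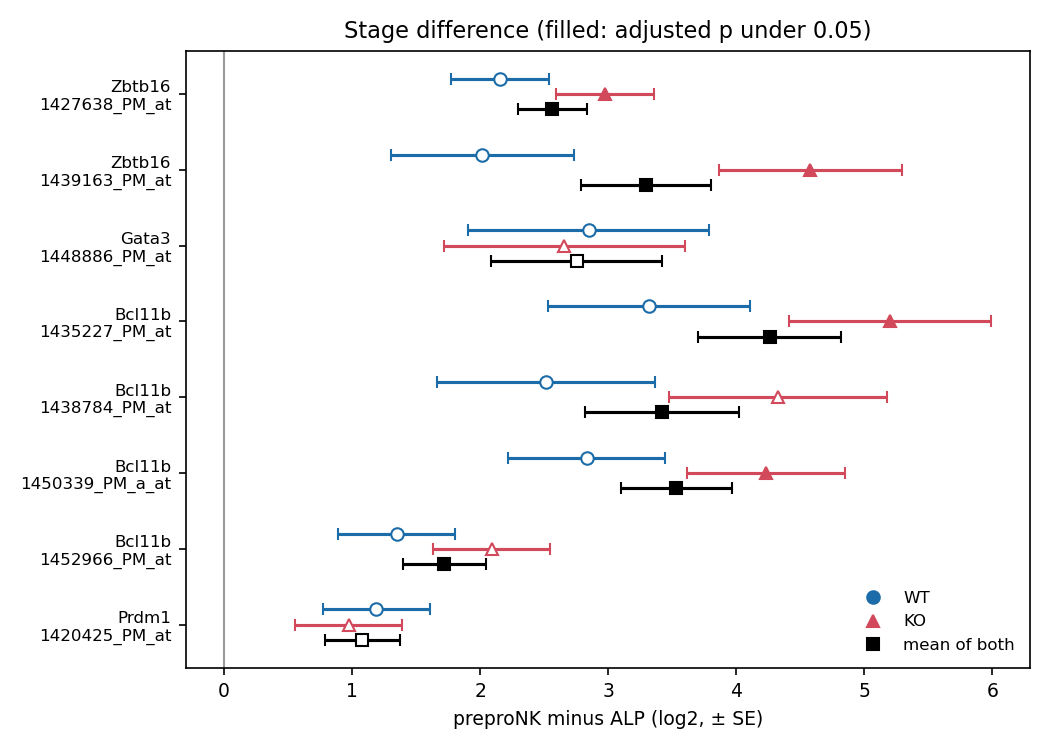
Fitted log2 difference between preproNK and ALP (x axis, ± SE) for the 8 tested probe sets (y axis), in WT, in KO and as the mean of both. Filled symbols have an adjusted p under 0.05, and these are 6 of the means, 4 of the KO values and none of the WT values.

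The comparison of KO with WT in preproNK asked whether the regulators need Nfil3 at the later stage. No member passed, and by limma 0% of the tested probe sets were called, while 5.26% had an unadjusted p under 0.05. Zbtb16 had a log2 difference of 0.87 on 1427638_PM_at (SE 0.38, 95% interval -0.02 to 1.77, adjusted p = 0.629) and of 2.31 on 1439163_PM_at (SE 0.71, interval 0.64 to 3.98, adjusted p = 0.629). The size of the change thus differed between the probe sets, and it did so at 1 date only. The KO array of replicate 1 was higher than its WT counterpart by 0.94 and 0.90 on the respective probe sets, and that of replicate 2 by 0.80 and 3.73. Both KO arrays were above both WT arrays on 4 of the 8 member probe sets, those of Zbtb16 and Bcl11b 1435227_PM_at and 1438784_PM_at, and on 22.6% of all tested probe sets. A KO value above WT at both dates was found on 6 of the 8 member probe sets, all of them Zbtb16 or Bcl11b, and on 34.2% of all tested probe sets.

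Bcl11b differed by 1.72 on 1435227_PM_at (SE 0.79, interval -0.13 to 3.56), 1.57 on 1438784_PM_at (SE 0.85, interval -0.42 to 3.56), 0.70 on 1450339_PM_a_at (SE 0.61, interval -0.74 to 2.14) and 0.69 on 1452966_PM_at (SE 0.46, interval -0.38 to 1.76), with adjusted p from 0.629 to 0.642. Between the replicate 1 arrays these were 0.33, 0.19, 0.13 and 0.76, against 3.10, 2.96, 1.26 and 0.63 between the replicate 2 arrays. Over the 5210 tested probe sets with a mean of at least 7 in KO preproNK, which hold 5 of the Zbtb16 and Bcl11b probe sets, the median difference was 0.09 for replicate 1 and 1.73 for replicate 2. The replicate 2 values of Zbtb16 1427638_PM_at and Bcl11b 1450339_PM_a_at were below that median and those of the other 3 above it. Without WT preproNK replicate 1, which leaves the array that stood apart as the only one of its group, Zbtb16 1439163_PM_at (3.51, adjusted p = 0.012) and Bcl11b 1435227_PM_at (3.09, adjusted p = 0.012) and 1438784_PM_at (2.98, adjusted p = 0.0171) were called, beside 15.1% of all tested probe sets called higher. Without WT preproNK replicate 2 their differences were 1.12, 0.34 and 0.16 and none was.

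Gata3 had no common direction. Its KO value differed from WT by -1.52 in replicate 1 and by 1.20 in replicate 2, for a fitted difference of -0.16 (SE 0.94, interval -2.37 to 2.05, adjusted p = 0.941). Without WT preproNK replicate 1 the value turned to 1.504 (adjusted p = 0.0507), and without replicate 2 it was -1.82 (adjusted p = 0.516). Prdm1 was lower in KO in both pairs, by -0.40 and -0.51, with a fitted difference of -0.46 (SE 0.42, interval -1.43 to 0.52, adjusted p = 0.648). A lower value at both dates was found for 25.9% of all tested probe sets.

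In ALP, where the members were near background on most arrays, the comparison of KO with WT gave small differences. They were 0.05 (interval -0.85 to 0.95) and -0.25 for Zbtb16, 0.03 (interval -2.18 to 2.23) for Gata3, -0.24 (interval -1.22 to 0.74) for Prdm1 and -0.05 to -0.70 for Bcl11b. Each had an adjusted p of 1 by limma, and 0.0724% of all tested probe sets had an unadjusted p under 0.05. The fit shares its estimate of spread over the 4 groups, so these intervals also carry the gap in WT preproNK. For Gata3 the SD was 0.11 in WT ALP and 0.38 in KO ALP, against 2.35 in WT preproNK. The p-values and intervals are thus not the spread of the ALP arrays alone. Fitted on the ALP groups alone, no member was called either. Only Bcl11b 1450339_PM_a_at was above the array medians on all ALP arrays, and it differed by -0.70 (SE 0.61, interval -2.14 to 0.74), with -0.45 and -0.95 in the pairs. A lower KO value at both dates was found on 4 of the 8 member probe sets and on 24.5% of all tested probe sets. Whether the knockout effect differed between the stages was asked by the interaction, which no member passed (adjusted p = 1 for each by limma, with 1.49% of all tested probe sets at an unadjusted p under 0.05). It was 0.82 (SE 0.54) and 2.56 (SE 1.01) for the Zbtb16 probe sets, -0.19 (SE 1.33) for Gata3, -0.22 (SE 0.59) for Prdm1 and 0.74 to 1.88 for Bcl11b.

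**Figure D3:**
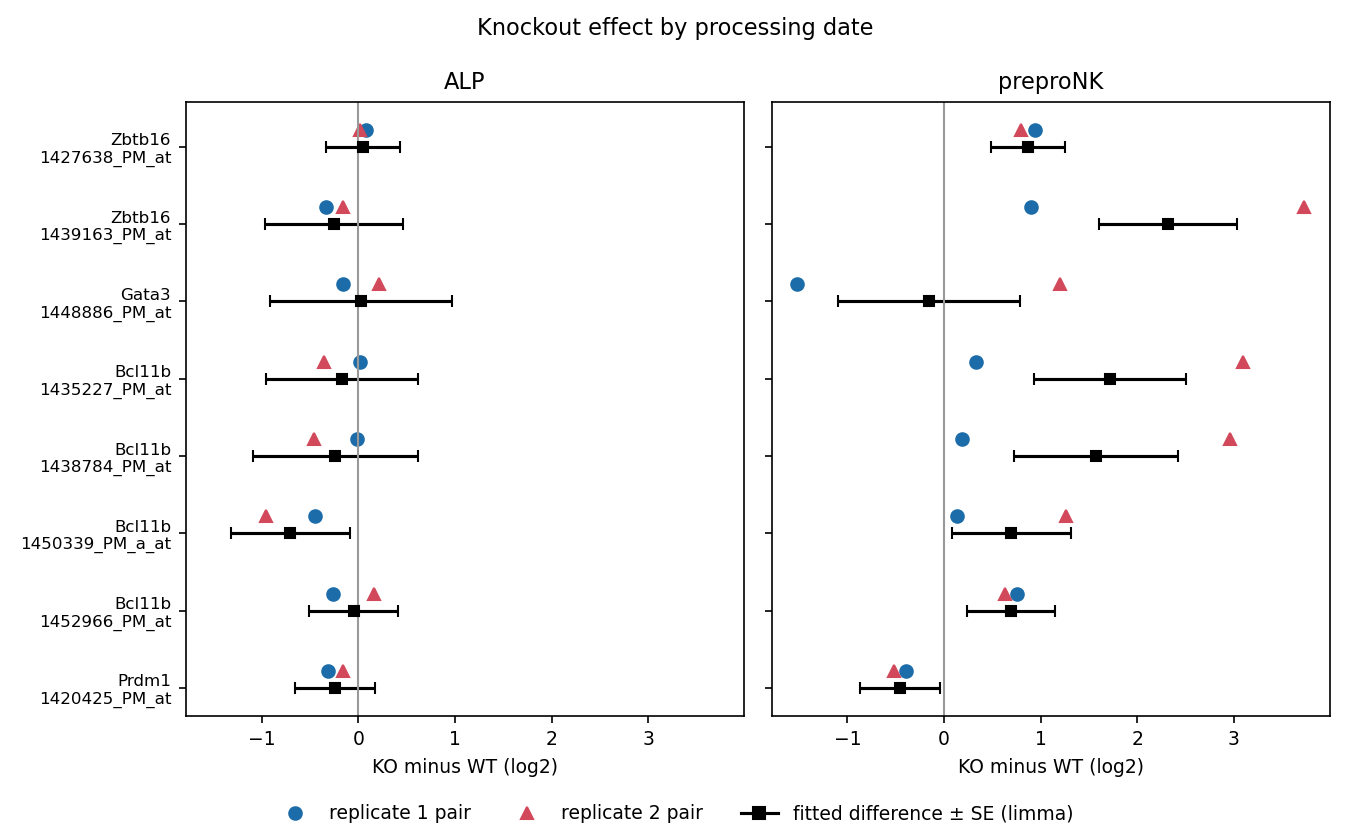
Log2 difference between KO and WT (x axis) for the 8 tested probe sets (y axis), in ALP (left) and preproNK (right). Circles are the replicate 1 pair, triangles the replicate 2 pair, and squares the fitted difference ± SE. In preproNK the triangles of Zbtb16 1439163_PM_at (3.73) and of Bcl11b 1435227_PM_at (3.10) and 1438784_PM_at (2.96) lie far to the right of their circles, and those of Gata3 lie on opposite sides of 0.

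Genes linked with these factors were followed through gene lists, each gene by its brightest tested probe set. Over all 11596 genes so tested, 1.61% were called higher and 1.41% lower in preproNK on average over genotypes, and the median difference was -0.01. Some list genes, such as Cd3e, Txk, Ccr6, Tbx21 and Lef1, were below the array medians on every ALP array. They entered the test through their preproNK values alone, and their differences start from values near background. The lists were also chosen with earlier results known, so the counts called higher are no support by themselves. Of the genes of T lineage identity 11 of 13 tested were called higher and none lower (median 2.13). Thy1, a surface glycoprotein, rose by 4.98 (SE 0.34, adjusted p = 0.00241), Cd3e, a chain of the CD3 complex, by 5.72 (SE 0.43, adjusted p = 0.0026), Txk, a Tec family kinase, by 3.05 (SE 0.31, adjusted p = 0.00669) and Cd3d by 3.24 (SE 0.36, adjusted p = 0.00762). The summed linear signal of the 8 listed T cell markers, all tested, which are all in this list too, was 235 to 353 on the ALP arrays, 1416 and 572 on WT preproNK and 4811 and 4199 on KO preproNK. All 8 were above the array median on each preproNK array. Between the stages Bcl11b and Zbtb16 thus rose together with markers of T cells. Between KO and WT preproNK the T cell marker median was 2.08 in replicate 1 and 2.55 in replicate 2. In replicate 1 the Bcl11b probe sets differed by 0.13 to 0.76 and those of Zbtb16 by 0.94 and 0.90. In replicate 2 the differences were 0.63 to 3.10 for Bcl11b and 0.80 and 3.73 for Zbtb16. The part of T cells in the result was not tested. In sorted populations, more cells of a type and more RNA per cell cannot be told apart.

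Of the genes linked with Gata3 and type 2 lymphocytes 4 of 7 tested were called higher (median 2.37): the costimulator gene Icos (3.99, SE 0.31, adjusted p = 0.0026), the interleukin 25 receptor chain gene Il17rb (3.03, SE 0.48, adjusted p = 0.0234), the chemokine receptor gene Ccr4 (1.96, SE 0.34, adjusted p = 0.0315) and the arginase gene Arg1 (2.54, SE 0.49, adjusted p = 0.0439). The list shares 3 tested genes with the ILC2 markers. The summed linear signal of the 4 tested ILC2 markers of 6 was 140 to 181 on the ALP arrays, 4037 and 1094 on WT preproNK and 1920 and 2307 on KO preproNK. As with Gata3, the brightest preproNK array was WT replicate 1 and the dimmest WT replicate 2. The part of such cells in the Gata3 values was not tested.

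Of the genes linked with PLZF and innate effector T cells 4 of 10 tested were called higher (median 1.47). The chemokine receptor gene Ccr6 rose by 4.25 (SE 0.48, adjusted p = 0.00789), the Src family kinase gene Blk by 3.19 (SE 0.39, adjusted p = 0.0101), the interleukin 18 receptor gene Il18r1 by 3.31 (SE 0.41, adjusted p = 0.0104) and Cxcr6, another chemokine receptor gene, by 3.31 (SE 0.54, adjusted p = 0.0266). Of the late NK genes 3 of 10 were called higher (median 1.35), with Tbx21, which encodes T-bet, at 4.19 (SE 0.30, adjusted p = 0.00244), Il2rb at 3.53 and the receptor gene Klrk1 at 2.89. The zinc finger factor gene Zeb2 was called lower (-2.38, SE 0.45, adjusted p = 0.0434).

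Of the other regulators of innate lymphoid precursors 14 of 18 were tested, 2 were called higher and 1 lower (median 0.69). Id2, the E protein inhibitor behind the reporter, rose by 3.38 (SE 0.49, adjusted p = 0.0177) and Lef1, a partner of TCF-1 in T lineage genes, by 3.57 (SE 0.68, adjusted p = 0.0427). Sox4, an HMG box factor, was called lower (-3.77, SE 0.29, adjusted p = 0.0026). Rora, which ILC2 need, differed by 4.49 (SE 0.997, adjusted p = 0.0667) and Ets1 by 2.10 (SE 0.66, adjusted p = 0.173). Rora had a gap in WT preproNK, with 9.58 and 4.32 on the replicates, and was at 9.33 and 8.89 in KO preproNK. Such a gap was not particular to Rora and Gata3. In this list Lef1 (7.32 and 3.93) and Satb1 (8.45 and 5.09) had it too, while Runx1 (6.33 and 6.53) did not. Tcf7 and Tox were not analysed here.

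Among paralogs of the 5 genes none was called higher in preproNK. Bcl11a, the paralog of Bcl11b and a factor of early lymphoid and B cell progenitors, was called lower in preproNK, by -4.39 (SE 0.40, adjusted p = 0.00472). It was at 8.50 to 10.05 on the ALP arrays and at 4.36 to 5.52 on the preproNK arrays, so the direction was opposite to that of each Bcl11b probe set. Gata2 differed by 0.42 (SE 0.25), Gata1 by 0.89 (SE 0.33), Prdm2 by 0.52 (SE 0.39) and Zbtb7b, which encodes the CD4 lineage factor ThPOK, by 1.51 (SE 0.32, adjusted p = 0.0558). Of the 11 tested paralogs 0 were called higher and 1 lower, with a median of 0.42.

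Between KO and WT preproNK no gene of these lists was called. The median differences were 2.29 for T lineage genes, 1.69 for genes linked with PLZF, 1.24 for late NK genes, 1.02 for the other regulators, -0.20 for paralogs and -0.85 for genes linked with Gata3, against 0.15 over all genes tested. In replicates 1 and 2 they were 1.70 and 2.40 for T lineage genes, 1.39 and 2.12 for genes linked with PLZF, 0.90 and 1.72 for late NK genes, 0.37 and 1.77 for the other regulators and 0.03 and 0.09 for paralogs. For genes linked with Gata3 the sign turned, from -1.91 to 0.47, as it did for Gata3 itself. The genes with the smallest p in the PLZF list were Ccr6 (3.49, SE 0.68), Blk (2.84, SE 0.55) and Il17re (1.80, SE 0.35), each at an adjusted p of 0.406. In replicates 1 and 2 Ccr6 differed by 2.53 and 4.44, Blk by 2.19 and 3.49 and Il17re by 2.18 and 1.42. In the Gata3 list Ccr4 was at 2.29 (SE 0.48) and Arg1 at -2.30 (SE 0.69), with 2.05 and 2.52 for Ccr4 and -3.73 and -0.87 for Arg1 in the replicates.

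**Figure D4:**
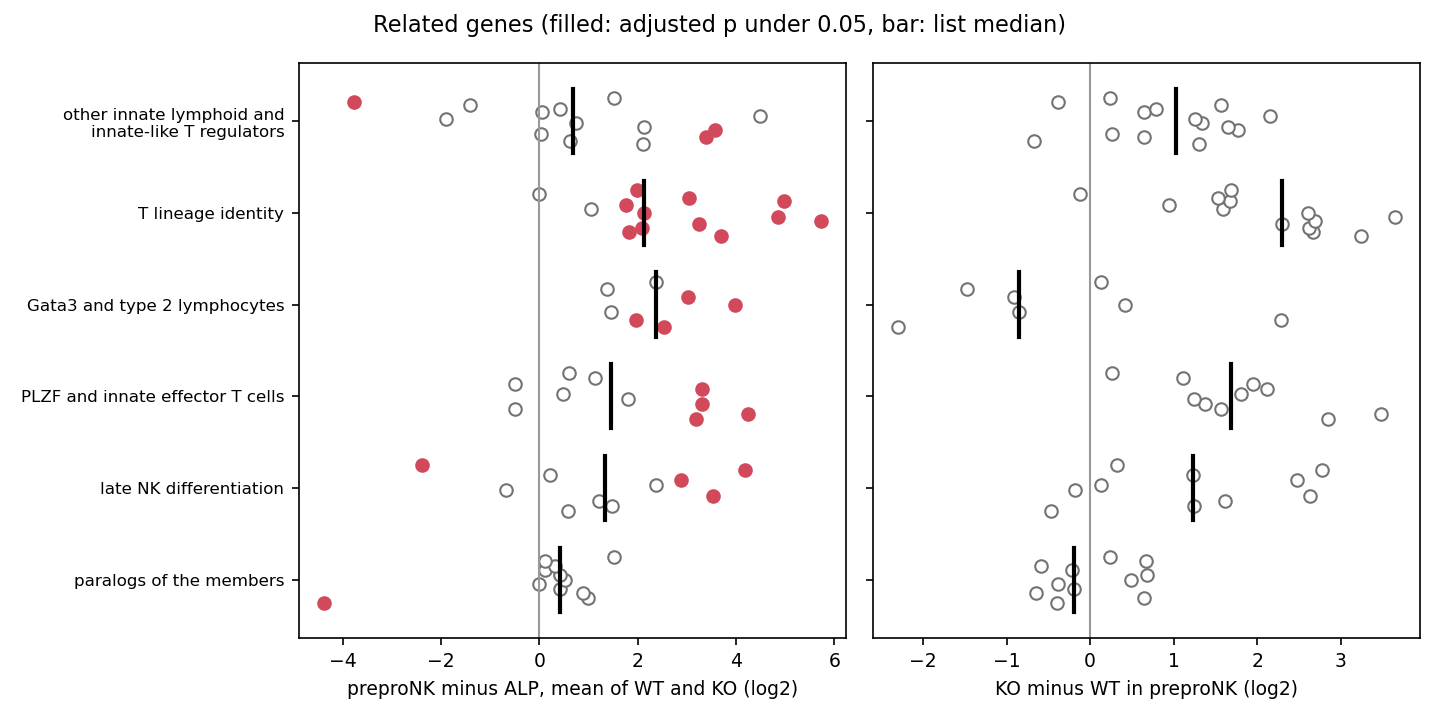
Log2 differences of the tested genes of 6 gene lists (y axis), between preproNK and ALP as the mean of both genotypes (left) and between KO and WT preproNK (right). Each point is a gene, filled where the adjusted p is under 0.05, and bars are list medians, which run from 0.42 to 2.37 on the left. No point is filled on the right.

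The genes whose values over the 8 arrays were most like those of each member were named by Pearson's r as a description. The arrays form 2 populations and share the gap in WT preproNK, which alone can give a high r. For Zbtb16 1427638_PM_at they were Traf1, a signal adaptor of TNF receptors (r = 0.996), Rasgrp1, a Ras activator of T cells (0.993), and Thy1 (0.990). For Bcl11b 1450339_PM_a_at they were the chromatin remodeller gene Chd7 (0.995), Nt5e, which encodes CD73 (0.995), and Adam8 (0.991). For Gata3 they were Retreg3 (0.985), Abcb9 (0.984) and Ahcyl2 (0.984), and for Prdm1 Grb7 (0.984), Tns2 (0.981) and Grin3a (0.976). Among the members themselves the Gata3 values correlated with those of Bcl11b at 0.88 to 0.93 and with those of Prdm1 at 0.68, and Zbtb16 correlated with Bcl11b at 0.93 to 0.98.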

How the data were processed

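RNA from sorted marrow progenitors was isolated on magnetic beads and amplified over 23 cycles, as stated in the labels' protocols, then hybridised to 8 one-colour Affymetrix arrays. Probe sets carry log2 expression values as deposited; the submitters' processing notes name RMA and Partek, without settings or versions. That the scale is log2 follows from the range of the values. Gene names came from the platform annotation, which gave 1 symbol to 28898 of 45141 probe sets, several to 551 and none to 15692. By Entrez number 28689 matched RefSeq and 0 symbols changed.

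The members and lists were chosen with earlier results of these data known. A probe set was tested if it was above its array's median on at least 2 of 8 arrays, which left 26240 probe sets and 8 of the 9 members. One linear model with 4 group means was fitted with limma 3.58.1 (R 4.3.3, 4 residual degrees of freedom), two-sided, with Benjamini-Hochberg adjustment over all probe sets tested and a call at an adjusted p under 0.05. It was tested on simulated data with the same independent spread on every array. Those data lack the gap in WT preproNK and any effect of date, so that test covers only the working of the fit. Nothing says that replicates were separate mice, so p-values cover only the spread among these samples, possibly technical, and their number limits the precision. Named genes are the members on every array, Nfil3, up to 4 genes per list (called first, by adjusted p), some regulators and paralogs always, and 3 genes per member by likeness. Replicate numbers mark the processing date in the series design and so pair the samples. The replicate 1 deviations from the group means correlated in every pair of groups, at 0.131 to 0.799. Alternatives were the block, no filter, quantile normalization, 1 probe set per gene, array weights, the compared groups alone and leaving out each array, and, chosen after seeing the data, leaving out both WT replicate 2 arrays. The floor at the array median was also chosen after seeing the data.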

Additional observations from a re-analysis of the deposited data

Results flagged for a closer look

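In 3 member probe sets the KO array was below the WT array at both dates in ALP and above it at both dates in preproNK. These were Zbtb16 1439163_PM_at, with an interaction of 2.56 log2 (SE 1.01), Bcl11b 1438784_PM_at, with 1.81 (SE 1.20), and Bcl11b 1450339_PM_a_at, with 1.40 (SE 0.87). Of all tested probe sets 3.21% showed this pattern of signs. The difference between the stages was tested by the interaction in limma and none passed (adjusted p = 1 for each). In ALP the Zbtb16 probe set was below the array medians on all 4 arrays and Bcl11b 1438784_PM_at on 3 of 4, so their signs there order values near background. In the replicate 1 arrays alone the interactions were 1.24, 0.20 and 0.58, and in replicate 2 they were 3.89, 3.42 and 2.22. Without both WT replicate 2 arrays they were 1.23, -0.11 and 0.11.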

How the results depend on the processing

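The values below are log2 differences unless called counts. Outside the settings that left out a single array, 262 of 296 member differences kept the direction and the side of the threshold reported. With single arrays left out 296 did, 51 lost their call, 18 gained one and 19 changed sign. Outside those, only quantile normalization and leaving out both WT replicate 2 arrays could change a difference. The other settings return the same log2 difference by design and could change only its call. Most member differences were not called in the main fit either, so the count of 262 is no support by itself. On average over genotypes 740 probe sets were called between the stages, and the count was 1627 with the replicate block, 391 with 1 probe set per gene, 2797 without both WT replicate 2 arrays and 38 to 2058 with single arrays left out. For KO the count of 379 became 797 with the replicate block, 203 with 1 probe set per gene, 1927 with array weights, 2200 with the compared groups alone or without both WT replicate 2 arrays, and 0 to 1085 with single arrays left out. For WT the count of 16 became 43 with the replicate block, 8 without the filter, 78 with quantile normalization, 4 with array weights, 0 with the compared groups alone, 687 without both WT replicate 2 arrays and 0 to 1346 with single arrays left out. Between KO and WT preproNK the count of 0 became 1 without the filter, 68 without both WT replicate 2 arrays and 0 to 5058 with single arrays left out, the highest without WT preproNK replicate 1.

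With single arrays left out, the mean stage difference ran from 2.43 to 2.70 for Zbtb16 1427638_PM_at, 1.92 to 3.58 for Gata3 and 3.10 to 3.97 for Bcl11b 1450339_PM_a_at, from 2.70 to 3.24, 2.36 to 2.96 and 3.93 to 4.54 in KO and from 1.93 to 2.37, 1.18 to 4.51 and 1.96 to 3.70 in WT, with calls gained or lost. With the replicate block Gata3 (2.75) and Prdm1 (1.08) were called on average over genotypes, and with array weights Gata3 was too (2.75, and 2.66 in KO). With the KO groups alone or without both WT replicate 2 arrays Gata3 was called in KO (2.66). Without the filter Bcl11b 1450339_PM_a_at (4.23, adjusted p = 0.0590), Zbtb16 1439163_PM_at and Bcl11b 1435227_PM_at were no longer called in KO, nor were Bcl11b 1438784_PM_at and 1452966_PM_at on average. Without both WT replicate 2 arrays Zbtb16 1427638_PM_at (2.57), Gata3 (4.59) and Bcl11b 1450339_PM_a_at (4.12) were called in WT, and Gata3 (3.62) and Prdm1 (1.15) on average. The block changed no other call of a leading probe set. The sign turned without both WT replicate 2 arrays for KO against WT in ALP on Bcl11b 1435227_PM_at (0.090), 1438784_PM_at (0.27) and 1452966_PM_at (0.12, and 0.061 with quantile normalization) and on Prdm1 (0.078), in preproNK on Bcl11b 1450339_PM_a_at (-0.17), and in the interaction on Bcl11b 1438784_PM_at (-0.11). With single arrays left out the ALP differences ran from -0.17 to 0.27 for Zbtb16 1427638_PM_at, -0.24 to 0.30 for Gata3, -0.43 to 0.090, -0.75 to 0.27 and -0.42 to 0.33 for Bcl11b 1435227_PM_at, 1438784_PM_at and 1452966_PM_at and -0.64 to 0.16 for Prdm1. The preproNK differences ran from -1.82 to 1.504 for Gata3 and -0.17 to 1.57 for Bcl11b 1450339_PM_a_at, and the interaction from -1.85 to 1.48 for Gata3 and -0.61 to 0.18 for Prdm1. For these changes the cause was not tested.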
